A study of Homo sapiens with 18 samples.

Results

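The genes described here are 8 members of the system that makes and clears superoxide: the phagocyte oxidase genes CYBB, CYBA, NCF1, NCF4 and RAC2, the superoxide dismutases SOD1 and SOD2, and catalase (CAT). They were taken by name or identifier from a table of 63677 genes. The rule uses no measured value, but the set was proposed with earlier results of these data known. Read counts came from THP-1, a suspension line of human acute monocytic leukaemia, in 18 libraries prepared with QuantSeq, which reads the 3′ end of polyadenylated RNA. Cells received 25 nM of an siRNA against TRAFD1 (KD), 25 nM of a non-targeting scrambled siRNA (SCR) or no siRNA (WT), and 72 h later were given lipopolysaccharide (LPS, a component of the bacterial outer membrane) at 10 ng/ml or medium alone (unstimulated) for 4 h, as the labels give it; the study's own descriptions differ on this duration. The sources disagree on WT, which is called untreated in one place and given the transfection mix without siRNA in another, so that reagent and siRNA cannot be told apart in a comparison of SCR or KD with WT. There were 3 libraries in each of 6 groups, and the labels number the unstimulated ones 1 to 3 and the LPS-treated ones 4 to 6. All came from 1 cell line, and 1 siRNA sequence was used against TRAFD1.

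The phagocyte oxidase is an enzyme complex of monocytes, macrophages and neutrophils that moves electrons from NADPH across a membrane onto oxygen and so makes superoxide. Its catalytic core, gp91phox (CYBB) with p22phox (CYBA), sits in the membrane, while p47phox (NCF1), p40phox (NCF4), a RAC GTPase and other subunits join it from the cytosol when the cell is activated. Superoxide dismutases turn superoxide into hydrogen peroxide, SOD1 mainly in the cytosol with copper and zinc and SOD2 in the mitochondrial matrix with manganese, and catalase breaks the peroxide down to water and oxygen. SOD2 is a well-known target of the transcription factor NF-kB, which LPS activates.

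Start-site sequences of 5 of the 8 members were matched by symbol in RefSeq (GRCh38.p14), and the 250 bases before the start are shown for the 3 members that were higher with LPS in WT cells, each 5′ to 3′ on the strand of the gene. For SOD2, which has 4 listed starts, the one farthest downstream is shown, with the GC box GGGCGG in capitals. For CYBB and NCF1, capitals mark matches to the core of interferon response elements, searched as 2 copies of GAAA set 2 bases apart. The windows are SOD2 chr6:159693242-159693491 (minus strand), CYBB chrX:37779809-37780058 (plus strand) and NCF1 chr7:74773761-74774010 (plus strand).
SOD2: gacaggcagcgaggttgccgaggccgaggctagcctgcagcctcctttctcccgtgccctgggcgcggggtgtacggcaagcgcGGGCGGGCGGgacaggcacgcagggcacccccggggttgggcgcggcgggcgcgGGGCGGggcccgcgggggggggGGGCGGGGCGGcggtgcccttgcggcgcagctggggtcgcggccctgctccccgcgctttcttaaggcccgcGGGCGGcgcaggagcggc
CYBB: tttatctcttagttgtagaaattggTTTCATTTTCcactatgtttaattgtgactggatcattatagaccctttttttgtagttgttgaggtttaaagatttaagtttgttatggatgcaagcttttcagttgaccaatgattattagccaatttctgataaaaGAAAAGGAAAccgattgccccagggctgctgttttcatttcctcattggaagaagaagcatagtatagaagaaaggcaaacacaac
NCF1: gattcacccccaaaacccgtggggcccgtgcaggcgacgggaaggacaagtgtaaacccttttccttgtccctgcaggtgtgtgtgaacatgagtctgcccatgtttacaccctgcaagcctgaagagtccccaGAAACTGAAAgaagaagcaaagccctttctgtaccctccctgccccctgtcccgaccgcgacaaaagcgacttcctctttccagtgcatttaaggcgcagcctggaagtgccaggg

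Both strands were searched and overlapping matches counted. The SOD2 window held 6 GC boxes, of which neighbours overlap in 2 places, against at least 1 GC box in 42.6% of 35116 RefSeq start windows of the same length. The other 3 SOD2 starts held 4, 1 and 1, CYBA held 6 and CAT held 1. The interferon response core stood in 3.02% of all windows, with 2 matches in CYBB, 1 of them on the opposite strand, and 1 in NCF1. CYBB also held 4 copies of CCAAT and CAT held 5, a motif found in 32% of windows. NCF1 had 1 match to GAGGAAG, the core bound by ETS factors, which 11.2% of windows contain. The NF-kB consensus, present in 9.96% of windows, was matched once, in CYBA, and in none of the 4 SOD2 windows. TATAAA (10.7% of windows) and the AP-1 site TGANTCA (6.57%) were matched in no member. These are letter matches in short windows and carry no measurement of binding.

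Total counts ran from 8206023 to 22344279 per library, and levels are given as counts per 1000000 (CPM) of the library total scaled by TMM. QuantSeq yields 1 tag per transcript, so gene length does not enter a level. Only tags in a short window at the end of each annotated gene were counted, however. Transcripts that end outside it would be missed, and the share missed was not measured for any gene. Comparisons between members are therefore of counted tags and may not hold for transcripts. In unstimulated cells the siRNA target TRAFD1 fell in KD relative to SCR (log2 fold change -1.45, edgeR adjusted p 0.0277, SE 0.23), and with LPS the difference was -0.65 (edgeR adjusted p 0.262, SE 0.22). The former call was lost without SCR 1 (edgeR adjusted p 0.119), SCR 3 (0.112) or KD 2 (0.064) and in edgeR on these groups alone (0.0847). The LPS difference passed without the filter on low counts (-0.66, edgeR adjusted p 0.0275) and in DESeq2 on these groups alone (-0.65, adjusted p 0.0158). All 10 monocyte and myeloid markers examined had counts, with a summed level of 738 to 1042 CPM per library. Of 13 markers of T, B, erythroid, epithelial and fibroblast cells, summed to 2.78 to 6.26 CPM, HBB was at 0 in every library. A level per library total cannot tell fewer cells that express a gene from less RNA per cell, for any gene below.

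Before LPS the members covered a wide range of levels, in tags counted at the annotated gene ends. The order below holds for these tags, and which gene copy the NCF1 reads came from is uncertain. In unstimulated WT cells SOD1 (243 ± 12.6 CPM, SD, n = 3) and NCF4 (242 ± 19.6) were the highest and their libraries overlapped. CAT (146 ± 13.9) and SOD2 (50.2 ± 2.26) followed, each clear of its neighbours. NCF1 (13.3 ± 3.80), CYBB (11.6 ± 1.19) and CYBA (11.2 ± 4.94) lay close together with overlapping libraries, far below NCF4. After LPS the order in WT was SOD2 (1315 ± 104 CPM), SOD1 (268 ± 16.9), NCF4 (182 ± 5.01), CAT (99.3 ± 2.83), CYBB (32.6 ± 1.51), NCF1 (30.6 ± 5.36) and CYBA (16.8 ± 2.71). CYBB and NCF1 overlapped there, and the others did not.

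**Figure D1:**
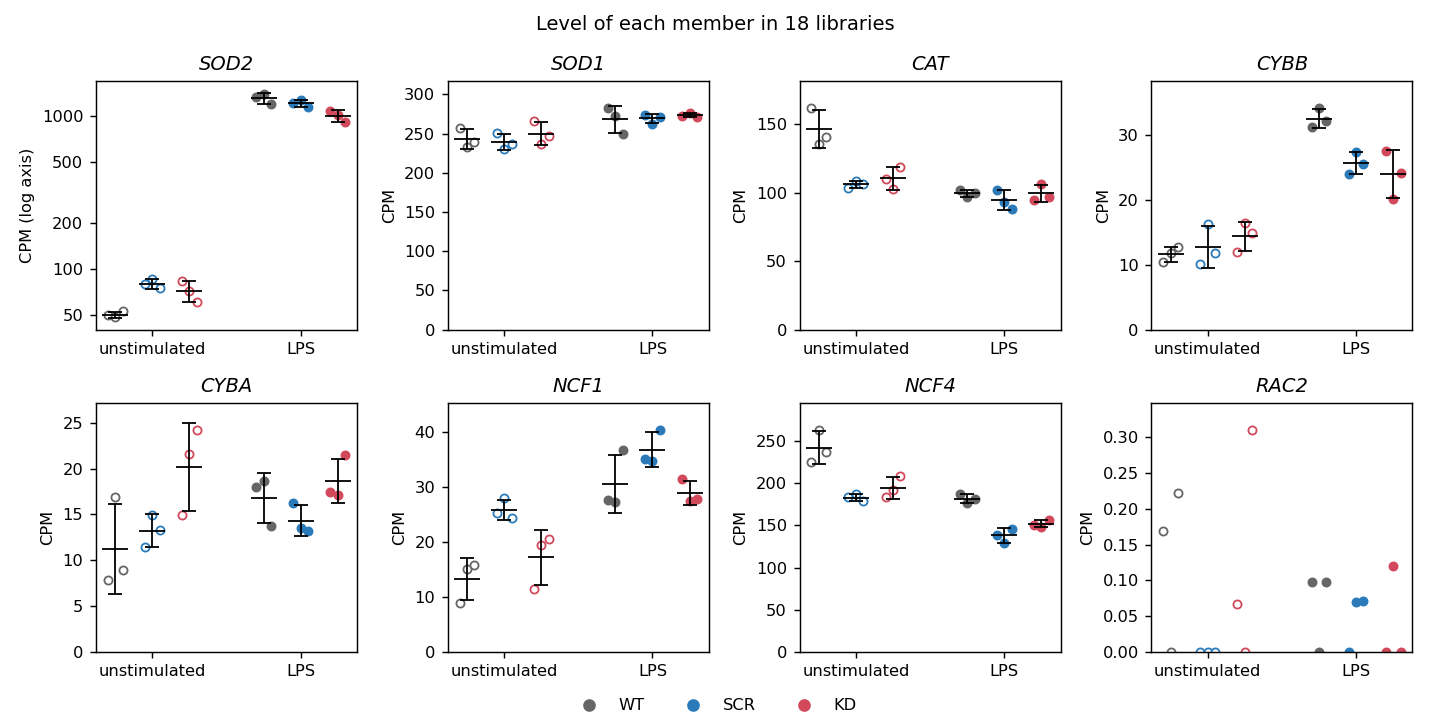
Level of each member in CPM (vertical axes from 0, but logarithmic for SOD2) in each of the 18 libraries, with open points for unstimulated and filled points for LPS-treated cells, coloured by WT, SCR and KD. Bars give the mean and SD of 3 libraries and are left out for RAC2, which had at most 5 reads in a library. All 9 LPS libraries lie above all 9 unstimulated ones for SOD2 (from 912 CPM against up to 86.2 CPM) and for CYBB (from 20.3 CPM against up to 16.4 CPM).

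SOD2 (ENSG00000112096, chromosome 6, 160090101 to 160183561 on the minus strand of GRCh37) was the member that LPS moved furthest. The annotation used here lists the gene under a newer identifier, ENSG00000291237. Unstimulated WT libraries held 49.6, 48.2 and 52.7 CPM, SCR libraries 79.7, 86.2 and 74.5 CPM, and KD libraries 83.9, 71.5 and 61.0 CPM. With LPS the WT libraries held 1333, 1408 and 1204 CPM, the SCR libraries 1213, 1282 and 1146 CPM, and the KD libraries 1085, 1015 and 912 CPM. Every LPS library was above every unstimulated library, every unstimulated WT library was below all 6 libraries with an siRNA, and every KD library with LPS was below every WT and SCR library with LPS. SOD2 reads numbered 532 to 18469 per library, the latter 0.14% of a library.

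LPS raised SOD2 26.2-fold in WT (log2 fold change 4.71, SE 0.12, edgeR adjusted p 5.74e-17), 15.2-fold in SCR (3.92, SE 0.11, edgeR adjusted p 1.12e-15) and 13.9-fold in KD (3.80, SE 0.11, edgeR adjusted p 1.97e-15). Among 16678 genes tested it had the smallest p in all 3 conditions, while by size of fold change it ranked 25, 37 and 44. The increase was smaller in SCR than in WT (difference -0.79 in log2 units, SE 0.14, edgeR adjusted p 0.0161) and smaller in KD than in WT (-0.91, SE 0.14, edgeR adjusted p 0.00502). SCR and KD differed by -0.12 (95% interval -0.42 to 0.18, edgeR adjusted p 0.861). The call for SCR against WT was lost without any 1 of 4 libraries, namely WT 1 (edgeR adjusted p 0.0582), SCR 2 (0.0678), WT 5 (0.0691) and SCR 6 (0.0647), with the difference between -0.78 and -0.73. SOD2 was the one member called in either of these interactions, which called 0.234% and 0.36% of all genes, and none was called between KD and SCR, where 0% of genes were called, 0 members had an unadjusted edgeR p under 0.05 and DESeq2 called 0 members.

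The smaller increases with an siRNA went together with a higher unstimulated level. Before LPS, SOD2 was 1.59 times as high in SCR as in WT (log2 fold change 0.67, SE 0.10, edgeR adjusted p 9.11e-04) and 1.44 times as high in KD as in WT (0.52, SE 0.10, edgeR adjusted p 0.00251), comparisons that share the WT libraries. The KD call was lost in edgeR on the KD and WT groups alone (0.57, adjusted p 0.0721). With LPS, SCR stood at -0.12 relative to WT (SE 0.10, edgeR adjusted p 0.636) and KD was lower than WT (log2 fold change -0.39, SE 0.10, edgeR adjusted p 0.0177). The latter call was lost without WT 5 (edgeR adjusted p 0.0597), KD 5 (0.0556) or KD 6 (0.0868). TNF, another gene that LPS raises through NF-kB, had 15.9 ± 3.01 CPM in unstimulated WT, 43.2 ± 7.09 in SCR and 43.2 ± 7.52 in KD (SD, n = 3 each), and 141 ± 11.1, 144 ± 14.2 and 114 ± 10.5 CPM with LPS. The part that a raised unstimulated state of the transfected cells had in the SOD2 values was not tested.

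Between KD and SCR, the comparison that isolates the TRAFD1 siRNA, SOD2 differed by -0.15 without LPS (95% interval -0.37 to 0.06, edgeR adjusted p 0.584) and by -0.27 with LPS (-0.48 to -0.07, edgeR adjusted p 0.289). The KD and SCR libraries did not overlap with LPS, and DESeq2 on these 6 libraries alone gave -0.28 with an adjusted p of 0.0262. The genes whose log2 CPM followed SOD2 most closely over the 18 libraries were TNFAIP6 (Pearson r 0.995), NFKBIA (0.992) and ZC3H12A (0.991), given as a description, since these points share the LPS groups.

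SOD1 (ENSG00000142168, chromosome 21, 33031979 to 33041244, plus strand) moved little. Its libraries ran from 230.1 to 266 CPM without LPS and from 249.7 to 283 CPM with LPS. Within SCR and within KD every LPS library was above every unstimulated one, while in WT they overlapped. The LPS difference was 0.14 in WT (SE 0.08, edgeR adjusted p 0.252), 0.17 in SCR (SE 0.08, edgeR adjusted p 0.146) and 0.13 in KD (SE 0.08, edgeR adjusted p 0.293) as a log2 fold change, and none passed the threshold of 0.05. Between conditions it differed by -0.02 to 0.06, with 95% intervals from -0.18 to 0.22 at their widest.

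The SOD2 to SOD1 ratio of counts within a library needs no scaling between libraries. Its size holds for counted tags, since the share of each gene's tags that was counted is not known. The ratio follows SOD2 only as far as SOD1 was level. That was itself read from scaled values, so the ratio is no independent check. It was 0.207 ± 0.0135 in unstimulated WT, 0.336 ± 0.0337 in SCR and 0.288 ± 0.0362 in KD (SD, n = 3 each), so that SOD1 tags outnumbered SOD2 tags in all 9 unstimulated libraries. With LPS it was 4.90 ± 0.246, 4.51 ± 0.335 and 3.67 ± 0.310 for WT, SCR and KD, with SOD2 tags the more numerous in all 9 libraries. The KD libraries with LPS (3.36 to 3.98) lay below the SCR libraries (4.23 to 4.88). With 3 against 3 libraries an exact permutation test of such a ratio cannot give a p under 0.1.

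**Figure D2:**
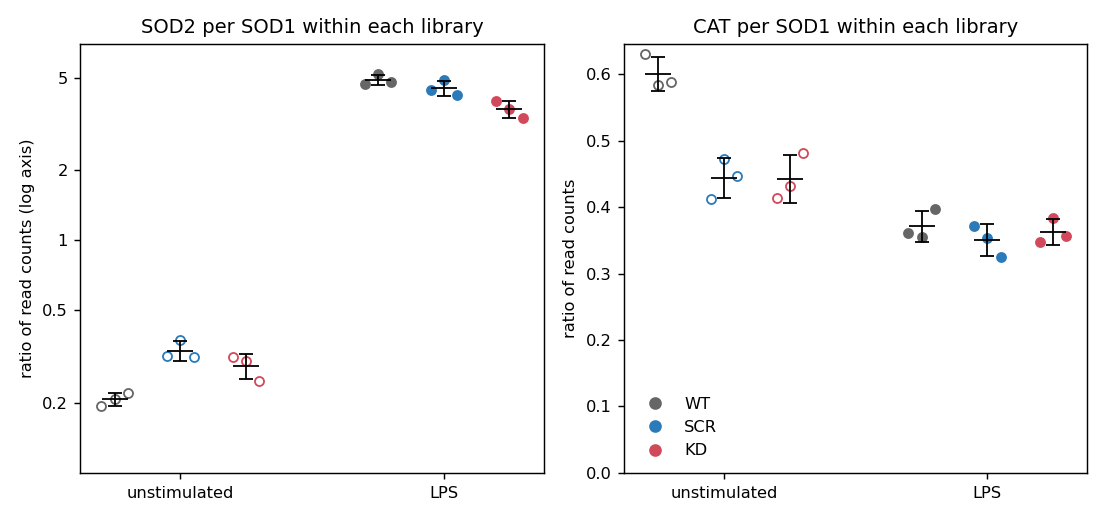
Ratio of read counts within each library, SOD2 to SOD1 on a logarithmic axis (left) and CAT to SOD1 on an axis from 0 (right), for WT, SCR and KD without LPS (open points) and with LPS (filled points), with bars for the mean and SD of 3 libraries. The SOD2 ratio goes from at most 0.375 to at least 3.36, and the CAT ratio of unstimulated WT (0.584 to 0.631) stands above all other groups.

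CAT (ENSG00000121691, chromosome 11, 34460481 to 34493607, plus strand) was highest in unstimulated WT, with 162, 136 and 141 CPM. SCR held 103, 109 and 106 CPM and KD 109.8, 102 and 119 CPM without LPS, all below WT. With LPS the 9 libraries ran from 87.9 to 106 CPM. LPS lowered CAT in WT (log2 fold change -0.56, SE 0.09, edgeR adjusted p 2.38e-04), and the differences in SCR (-0.17, SE 0.09, edgeR adjusted p 0.243) and KD (-0.15, SE 0.09, edgeR adjusted p 0.324) did not pass. Without LPS, CAT was lower than in WT both in SCR (-0.46, SE 0.09, edgeR adjusted p 0.00815) and in KD (-0.41, SE 0.09, edgeR adjusted p 0.00736), and these calls were lost without WT 1, at 0.0576 and 0.0531. On the KD and WT groups alone the KD call was lost in edgeR (adjusted p 0.139) and DESeq2 (adjusted p 0.108). With LPS the conditions differed by -0.08 to 0.08. The difference in LPS response from WT was 0.39 for SCR (SE 0.13, edgeR adjusted p 0.382) and 0.41 for KD (SE 0.13, edgeR adjusted p 0.175), neither past the threshold. In unstimulated cells KD and SCR differed by 0.06 (95% interval -0.14 to 0.25).

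CYBB (ENSG00000165168, chromosome X, 37639271 to 37672714, plus strand), the catalytic subunit, was higher with LPS in every condition. Unstimulated libraries held 10.4, 11.8 and 12.7 CPM in WT, 10.1, 16.3 and 11.8 CPM in SCR, and 12.0, 16.4 and 14.9 CPM in KD. With LPS they held 31.4, 34.3 and 32.2 CPM in WT, 24.1, 27.4 and 25.6 CPM in SCR, and 27.7, 20.3 and 24.2 CPM in KD. No unstimulated library reached the lowest LPS library, and with LPS every WT library was above every library with an siRNA. The increase was 2.80-fold in WT (log2 fold change 1.49, SE 0.17, edgeR adjusted p 1.62e-06), 2.04-fold in SCR (1.03, SE 0.17, edgeR adjusted p 2.32e-04) and 1.66-fold in KD (0.73, SE 0.17, edgeR adjusted p 0.00625). These rest on 130 to 411 reads per library.

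The increases of CYBB differed between KD and WT by -0.75 (SE 0.24, edgeR adjusted p 0.166; 0.0291 without KD 1, where the difference was -0.87) and between SCR and WT by -0.46 (SE 0.24, edgeR adjusted p 0.529), so the fall in order from WT to KD was not past the threshold. With LPS the level in KD relative to WT was -0.44 (SE 0.16, edgeR adjusted p 0.0865), and 4 of the alternatives placed it past the threshold. A long non-coding locus of the same strand, ENSG00000250349, overlaps the last 500 bases of CYBB in the annotation and had 0 counts in all libraries. Only the last 500 bases of that locus itself were counted. Whether reads from it fell in the CYBB window was not tested.

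CYBA (ENSG00000051523, chromosome 16, 88709683 to 88717491, minus strand), the stabilizing partner of CYBB, was measured with the widest spread. Unstimulated WT libraries held 7.79, 16.9 and 8.97 CPM, SCR 11.5, 15.0 and 13.3 CPM, and KD 14.9, 21.5 and 24.2 CPM. With LPS the ranges were 13.7 to 18.7 CPM in WT, 13.2 to 16.2 CPM in SCR and 17.1 to 21.5 CPM in KD. WT 2 stood well above the other WT libraries and overlapped KD. The LPS difference was 0.61 in WT (SE 0.24, edgeR adjusted p 0.0935), 0.11 in SCR and -0.11 in KD, none past the threshold. The WT value was past it without WT 2 (1.00, edgeR adjusted p 0.00283) and without the filter on low counts (0.60, edgeR adjusted p 0.0277). CYBA was higher in unstimulated KD than in WT (log2 fold change 0.88, SE 0.23, edgeR adjusted p 0.018), a call lost without WT 1 (0.0991), WT 3 (0.109) or KD 3 (0.0827). On these groups alone it was lost in edgeR (adjusted p 0.137) and DESeq2 (adjusted p 0.054). Against SCR the difference was 0.62 without LPS (95% interval 0.13 to 1.10, edgeR adjusted p 0.265) and 0.39 with LPS (-0.09 to 0.88, edgeR adjusted p 0.523).

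NCF1 (ENSG00000158517, chromosome 7, 74188358 to 74203659, plus strand), the organizer subunit, cannot be separated from its copies. NCF1C, an unprocessed pseudogene at 74572445 to 74587848 on the minus strand of the same chromosome, had between 0.955 and 1.02 times the NCF1 count in every library, with at most 17 reads of difference. NCF1B, a transcribed pseudogene at 72634681 to 72649821, had 0.469 to 0.725 times the count. The values below are therefore those of reads assigned to NCF1, and which copy they came from is uncertain.

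**Figure D3:**
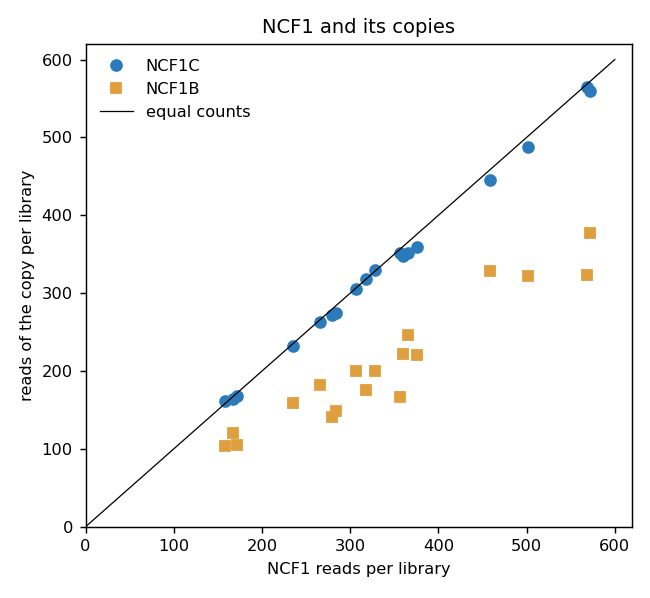
Reads assigned to NCF1C (circles) and NCF1B (squares) against reads assigned to NCF1 in each of the 18 libraries, with a line at equal counts. NCF1C lies on the line to within 17 reads, and NCF1B lies below it in every library.

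Unstimulated NCF1 libraries held 8.92, 15.1 and 15.8 CPM in WT, 25.3, 28.0 and 24.5 CPM in SCR, and 11.5, 19.4 and 20.7 CPM in KD. With LPS they held 27.6, 27.4 and 36.8 CPM in WT, 35.1, 34.8 and 40.5 CPM in SCR, and 31.4, 27.5 and 27.9 CPM in KD. SCR was clear of both other conditions before LPS and clear of KD after it. LPS raised NCF1 in WT (log2 fold change 1.20, SE 0.20, edgeR adjusted p 2.52e-04) and in KD (0.75, SE 0.20, edgeR adjusted p 0.0183), the latter lost without KD 1 (0.0531) or KD 4 (0.0705). In SCR the difference was 0.51 (SE 0.20, edgeR adjusted p 0.081), with no overlap of the libraries, and fits to the 6 libraries alone called it with edgeR (adjusted p 0.00725) and DESeq2 (adjusted p 0.00424). The responses were not shown to differ, at -0.69 for SCR minus WT (SE 0.28, edgeR adjusted p 0.454) and -0.45 for KD minus WT (SE 0.29, edgeR adjusted p 0.468).

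Without LPS, NCF1 was higher in SCR than in WT (log2 fold change 0.96, SE 0.20, edgeR adjusted p 0.0112). Leaving out WT 1 gave an adjusted p of 0.06 and lost the call. KD stood between, at 0.37 against WT (SE 0.21, edgeR adjusted p 0.273, or 0.0448 without KD 1) and -0.59 against SCR (95% interval -1.01 to -0.17, edgeR adjusted p 0.211). The value against SCR was past the threshold in a fit without the filter on low counts (-0.60, edgeR adjusted p 0.0331). NCF1B and NCF1C showed the same directions in SCR against WT, at 0.94 (SE 0.24, edgeR adjusted p 0.0356) and 0.97 (SE 0.20, edgeR adjusted p 0.00923), which is not independent evidence given the shared reads. The NCF1B call was lost in 5 of 6 fits that left out a library and the NCF1C call without WT 1 (0.054). With the reads of all 3 copies summed, every NCF1 comparison recomputed kept its direction and its side of the threshold. Little else was possible, because NCF1C nearly repeats the NCF1 counts. The sum is therefore no check on which copy the reads came from.

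NCF4 (ENSG00000100365, chromosome 22, 37257030 to 37274059, plus strand), which binds a membrane phosphoinositide, was the oxidase member that went down. Unstimulated libraries held 225, 264 and 237 CPM in WT, 183, 187 and 179 CPM in SCR, and 183, 192 and 209 CPM in KD. With LPS they held 187, 177 and 181 CPM in WT, 138, 129.5 and 146 CPM in SCR, and 151, 148 and 157 CPM in KD. Within each condition no LPS library overlapped an unstimulated one. LPS lowered NCF4 by nearly the same amount in all 3 conditions, with log2 fold changes of -0.41 in WT (SE 0.08, edgeR adjusted p 0.00156), -0.41 in SCR (SE 0.08, edgeR adjusted p 0.00188) and -0.36 in KD (SE 0.08, edgeR adjusted p 0.0074; 0.0518 without KD 3). The differences between these responses ran from 0.00 to 0.05, with 95% intervals from -0.24 to 0.30 at their widest.

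NCF4 was also lower with an siRNA than in WT. Without LPS the log2 fold change was -0.40 in SCR (SE 0.08, edgeR adjusted p 0.0102, or 0.0533 without SCR 3) and -0.31 in KD (SE 0.08, edgeR adjusted p 0.0181), the latter lost without WT 2 (0.0785), KD 1 (0.0627) or KD 2 (0.0504). That KD call was also lost without the filter on low counts (edgeR adjusted p 0.0574). On the KD and WT groups alone it was lost in edgeR (adjusted p 0.247) and DESeq2 (adjusted p 0.261). With LPS it was -0.40 in SCR (SE 0.08, edgeR adjusted p 0.0646) and -0.26 in KD (SE 0.08, edgeR adjusted p 0.0521), with no overlap of either group with WT. With LPS, same-numbered libraries of SCR and WT deviated weakly together, though the labels do not say what the number marks. A fit blocked on replicate number placed the SCR difference past the threshold (-0.40, edgeR adjusted p 0.0272), as did 4 other alternatives (adjusted p 0.00282 to 0.0468). The KD difference passed under 6 alternatives, with adjusted p from 0.00582 in DESeq2 on these groups alone to 0.0426 with RLE factors. KD and SCR differed by 0.09 without LPS (95% interval -0.08 to 0.26) and by 0.14 with LPS (-0.04 to 0.31).

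RAC2 (ENSG00000128340, chromosome 22, 37621310 to 37655634, minus strand), the RAC GTPase typical of blood cells, had 19 reads in all 18 libraries together. It had 0 reads in 9 libraries and at most 5, or 0.311 CPM, in any, and was not tested. A count of 0 allows up to 3 reads at 95% confidence, for counting error only, so no difference was detectable with these counts. Tags outside the window at the annotated end of RAC2 were not counted. The few reads therefore do not show that the cells lacked RAC2 RNA, and the cause of the low count was not tested. The related RAC1, which is expressed in most cell types, had 945 to 1215 CPM. RAC1 was lower in KD than in WT with LPS (log2 fold change -0.27, SE 0.07, edgeR adjusted p 0.0209). Leaving out single libraries ended the RAC1 call, namely WT 5 (0.0514), WT 6 (0.131), KD 5 (0.0881) or KD 6 (0.0714).

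Counted over the 7 members that passed the filter on low counts, LPS changed 5 in WT (3 higher, 2 lower), against 14.3% of all genes tested. It changed 3 in SCR (2 higher, 1 lower), where 17.2% of genes were called, and 4 in KD (3 higher, 1 lower), where 11.5% were. SOD2 and CYBB were higher and NCF4 lower in all 3. The members' median log2 fold change was 0.61, 0.17 and 0.13 in WT, SCR and KD, beside -0.03, -0.03 and 0.00 over all genes.

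**Figure D4:**
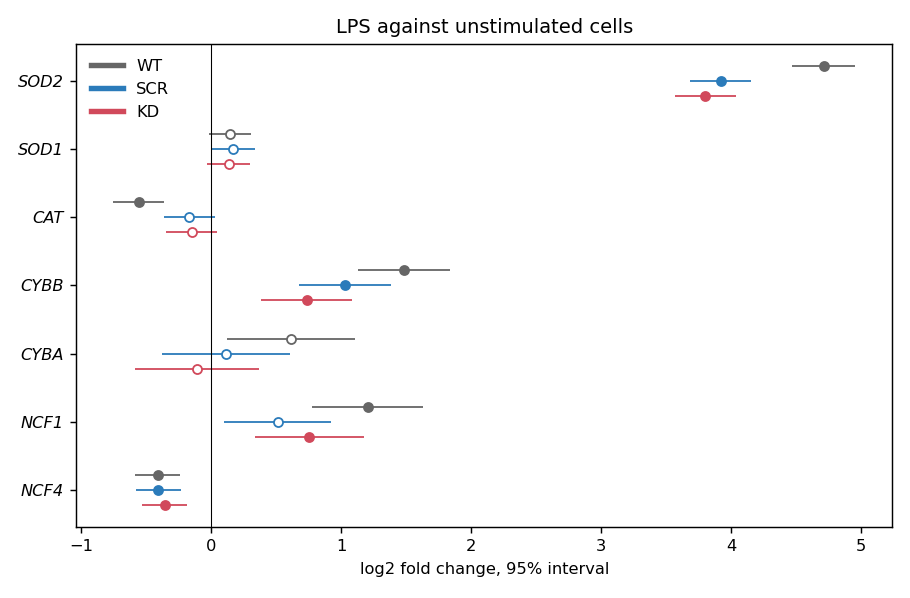
Log2 fold change of LPS-treated against unstimulated cells (horizontal axis) for the 7 members tested in WT, SCR and KD, with 95% intervals; filled points passed an edgeR adjusted p of 0.05. SOD2 lies between 3.80 and 4.71, CYBB and NCF1 to the right of 0, NCF4 to the left at -0.41 to -0.36, and CAT moved past the threshold in WT alone.

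In unstimulated cells 4 members differed between SCR and WT (SOD2 and NCF1 higher, CAT and NCF4 lower), where 3.23% of all genes were called, and 4 between KD and WT (SOD2 and CYBA higher, CAT and NCF4 lower), where 11.7% were. The summed level of the 10 myeloid markers was 738 to 844 CPM in unstimulated WT, 927 to 1042 CPM in SCR and 925 to 1030 CPM in KD, with 2 of 10 called higher in SCR and 3 of 10 in KD. FCER1G, the most abundant of them, had means of 292, 400 and 372 CPM and weighs most in the sum. The markers did not all rise. Mean levels below WT were seen for LYZ (43.4, 35.1 and 36.4 CPM in WT, SCR and KD) and MPO (2.02, 1.34 and 1.06), for ITGAM in KD and for CSF1R in SCR. The part of the markers in the members' values was not tested. Without WT 1 both counts of members called were 2, and in a fit to the 6 libraries of KD and WT alone the count for KD was 0. With LPS, SOD2 was the one member called between KD and WT, with 10.8% of genes called. Between SCR and WT with LPS edgeR called 0 members and 0.114% of genes, with 1 member at an unadjusted p under 0.05, and DESeq2 called 1, NCF4.

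Between KD and SCR, 0 members were called by edgeR in either state. Without LPS 0.066% of all genes were called and 2 members, NCF1 and CYBA, had an unadjusted p under 0.05, and DESeq2 called 0. With LPS 0% of genes were called and 1 member, SOD2, had an unadjusted p under 0.05, and DESeq2 called 0 on all libraries and 1 on the 6 libraries alone. The largest of these differences, for CYBA and NCF1, had intervals that reached 1.10 and -1.01, so that changes of about that size were not excluded by the spread of 3 libraries.

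**Figure D5:**
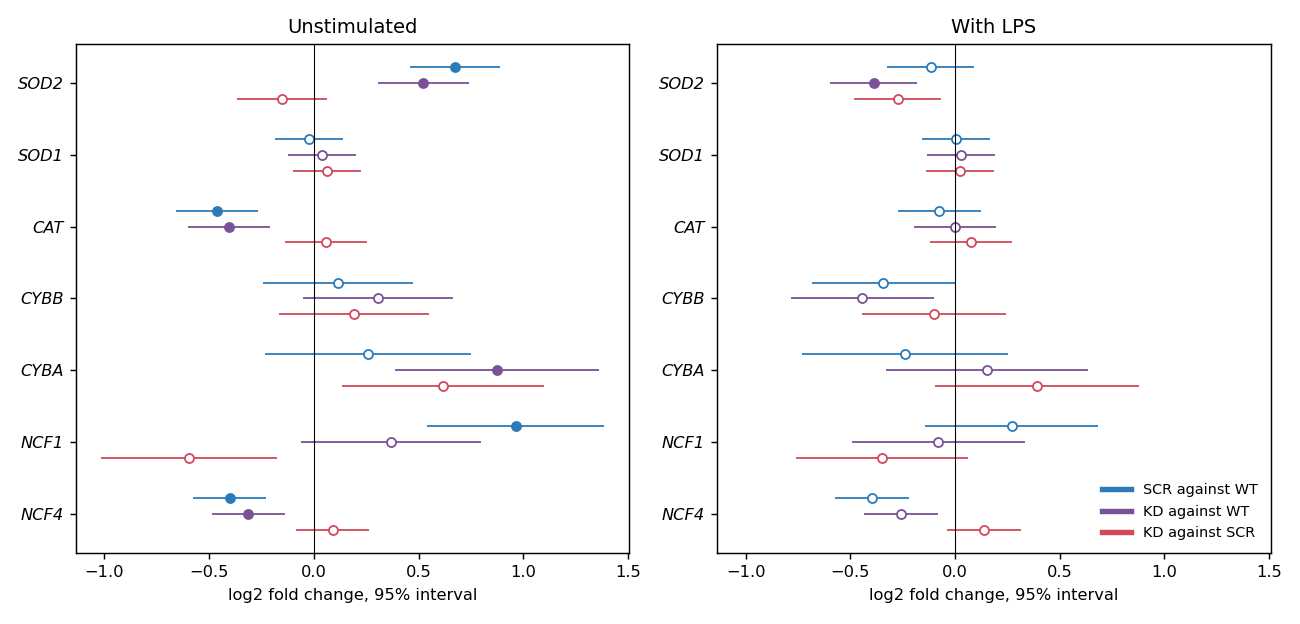
Log2 fold changes between conditions (horizontal axes) for the 7 members tested, without LPS (left) and with LPS (right), with 95% intervals; filled points passed an edgeR adjusted p of 0.05. The filled points all belong to comparisons with WT, which share the WT libraries, and 8 of the 9 are unstimulated.

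Of 22 further genes of the NADPH oxidase family and its regulators, 14 were tested. With LPS 4 of the 14 were called in WT, 1 in SCR and 3 in KD, beside 14.3%, 17.2% and 11.5% of all genes. The counts in WT and KD include NCF1B and NCF1C, which share reads with the member NCF1. They therefore overstate the number of separate genes called. In WT the copies NCF1B and NCF1C were higher (log2 fold changes 1.14 and 1.18, edgeR adjusted p 0.00261 and 2.58e-04) and PREX1, an exchange factor that activates RAC proteins, and PRKCB, a kinase that phosphorylates p47phox, were lower (-0.53 and -0.32, edgeR adjusted p 0.0039 and 0.00458). In SCR the 1 call was NOXA1, an activator of the related oxidase NOX1, lower by 0.94 (edgeR adjusted p 0.0417), and in KD it was lower by 0.98 (edgeR adjusted p 0.0349) beside higher NCF1B and NCF1C. The calls in WT held without any single library, whereas leaving out single libraries lost that of NOXA1 in 4 of 6 fits in SCR and 5 of 6 in KD, and those of NCF1B and NCF1C in KD in 4 and 3 of 6. The medians over the 14 genes were -0.07, -0.14 and -0.05. NOX1 and DUOXA2 were at 0 reads in every library.

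In unstimulated KD against WT 3 of the 14 were lower, PREX1 (-0.47, edgeR adjusted p 0.0128), PRKCB (-0.23, edgeR adjusted p 0.0476) and VAV1, another RAC exchange factor (-0.39, edgeR adjusted p 0.0385), and 0 were higher. Of all genes, 11.7% were called in that comparison. PREX1 held 157, 146 and 146 CPM in WT against 120.2, 86.9 and 117 CPM in KD, with no overlap. Its call was lost without KD 2 (0.0597), that of VAV1 in 4 of 6 and that of PRKCB in 6 of 6 fits that left out a library, and all 3 in edgeR on the 6 libraries alone (adjusted p 0.124 to 0.384). Between KD and SCR 0 of the 14 were called in either state by edgeR, with 2 at an unadjusted p under 0.05 without LPS and 0 with LPS. The shares of all genes called were 0.066% without LPS and 0% with LPS.

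Of 16 further genes that clear superoxide and peroxide, 14 were tested. With LPS GPX8, a peroxidase of the endoplasmic reticulum, was lower in WT (-1.29, edgeR adjusted p 0.00118), SCR (-0.88, edgeR adjusted p 0.0176) and KD (-0.90, edgeR adjusted p 0.0225), at 2.15 to 7.62 CPM. GPX1, the main cytosolic glutathione peroxidase, and PRDX4, a peroxiredoxin of the secretory pathway, were lower in SCR (-0.26 and -0.30, edgeR adjusted p 0.0242 and 0.0459). CCS, the chaperone that loads copper into SOD1, was lower in KD (-0.55, edgeR adjusted p 0.0363). The GPX8 call in WT held without any single library, and in SCR and KD it was lost in 3 of 6 such fits each, as were those of GPX1 and CCS in 5 and that of PRDX4 in 6. In all, 1 of the 14 was called in WT, 3 in SCR and 2 in KD, beside 14.3%, 17.2% and 11.5% of all genes. None of the 14 was called higher in any condition, where 1169, 1441 and 1069 of 16678 genes were. An uncalled gene can still have moved. PRDX6 in WT ran from 159 to 168 CPM without LPS and from 183 to 205 CPM with it, while its libraries overlapped in SCR and KD. SOD2 was the one clearing gene examined that was called higher with LPS.

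In unstimulated KD against WT 4 clearing genes were higher, GPX4 (0.76, edgeR adjusted p 0.00856), which reduces lipid peroxides, CCS (0.51, edgeR adjusted p 0.0496), PRDX6 (0.30, edgeR adjusted p 0.0223) and GPX1 (0.25, edgeR adjusted p 0.0431), and 0 were lower. Of all genes, 11.7% were called there. Only the GPX4 call held without any single library, and in edgeR on the 6 libraries alone none of the 4 passed (adjusted p 0.11 to 0.179). With LPS, where 10.8% of all genes were called, 2 were higher. These were TXN, the cytosolic thioredoxin (1.56, edgeR adjusted p 0.0183), and PRDX3, the mitochondrial peroxiredoxin (0.65, edgeR adjusted p 0.0372). TXN held 170, 178 and 75 CPM in the LPS libraries of WT and 414, 458 and 379 CPM in those of KD, with 262, 399.9 and 161 CPM in SCR. WT 6 and KD 5 decided its call (edgeR adjusted p 0.112 and 0.0617 without them), and that of PRDX3 was lost in 4 of 6 fits. Neither list had a call between KD and SCR, where 0 clearing genes without LPS and 2 with LPS had an unadjusted edgeR p under 0.05.

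Over the 18 libraries the closest genes in log2 CPM were WTAP and UXS1 for CYBB (Pearson r 0.966 each), ANXA11 for NCF4 (0.960), PHLDA2 for NCF1 after its copies (0.945), WT1 for SOD1 (0.943), HERC2P9 for CAT (0.930) and EIF5AL1 for CYBA (0.908). Among members, SOD2 ran with CYBB (0.931), SOD1 (0.79) and NCF1 (0.765) and against NCF4 (-0.772) and CAT (-0.722). Its value with SOD1 was 0.093 within the unstimulated and -0.067 within the LPS libraries. In the 9 unstimulated libraries SOD2 ran against NCF4 (-0.931) and CAT (-0.881), and in the 9 LPS libraries the values were 0.288 and -0.065. These are descriptions without a test, since the points share the groups of the design and the library totals.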

How the data were processed

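QuantSeq 3′ libraries were made from total RNA of THP-1 cells in 6 groups of 3. The authors aligned reads to GRCh37 with HISAT and counted them with featureCounts against a gene file cut to the last 500 bases of each Ensembl gene, and deposited 1 table of raw counts; all 18 columns were used. The methods call these bases 5′, which was read here as the 3′ end of the gene because QuantSeq reads from there; this was not checked on reads. The strand setting of the counting is not given in the sources used here. Nothing says whether the 3 libraries of a group came from separate cultures beyond being grown in triplicate, so p-values measure the spread between these libraries.

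Genes with low counts were removed by filterByExpr, which left 16678 of 63677. The 18 libraries entered 1 model with a coefficient for each group (edgeR 4.0.16 under R 4.3.3, TMM scaling, quasi-likelihood test), from which 12 contrasts were drawn: 6 between conditions, 3 of LPS and 3 interactions. P-values were adjusted over all genes tested by the Benjamini-Hochberg method, two-sided, with a threshold of 0.05. SE was obtained as log2 fold change over the root of the F statistic, and 95% intervals use the t quantile of the moderated degrees of freedom. Log2 CPM for correlations had a prior count of 2. The fit was tested on simulated data. No 2 libraries of a group agreed within sampling noise.

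Same-numbered libraries deviated together in SCR and WT with LPS, where all 3 correlations of their deviations lay between 0.163 and 0.261, and in no other pair of groups, so the block is given beside that comparison. The block was fitted in all groups, also where no such pairing was seen, and what the number marks is not stated. Alternatives were RLE factors, library totals, no filter, DESeq2 1.42.0 on all libraries or on the groups compared, edgeR on those groups alone, the replicate block, the sum of the NCF1 copies and leaving out each library.

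The members and lists were chosen with earlier results of these data known. Named genes are the members, RAC1, the NCF1 copies, up to 6 called genes per list and contrast, the genes most correlated with each member, TRAFD1 and TNF; 1 gene that the rule names is not reported here. Positions are those of GENCODE v44lift37 on GRCh37, and start windows those of RefSeq on GRCh38.p14. Molecular identifiers were not part of the table, and the limits given for 0 counts cover counting error only.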

Additional observations from a re-analysis of the deposited data

Results flagged for a closer look

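The LPS response of SOD2 differed between conditions by a test of the difference itself. On the log2 scale SCR minus WT was -0.789 (edgeR adjusted p 0.0161) and KD minus WT was -0.912 (edgeR adjusted p 0.00502). The responses side by side were 4.71, 3.92 and 3.80 for WT, SCR and KD. Both comparisons share the WT libraries. All 3 unstimulated WT libraries were below all 6 unstimulated libraries with an siRNA, and the cause was not tested.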

How the results depend on the processing

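Each count and value was recomputed under the alternatives, and scaling moved the median of all genes by less than 0.1 on the log2 scale. CYBA, CYBB and NCF1 had 129 to 572 reads per library, and RAC2 had too few to be tested. The spread of CYBA in unstimulated WT was a CV of 44%. Members called between KD and SCR went from 0 to 1 without LPS when no filter was used, and from 0 to 1 with LPS in DESeq2 on these groups alone. Between SCR and WT with LPS the count was 1, for NCF4, with library totals, without a filter, with DESeq2 on all or on the compared libraries, and with the replicate block. Between KD and WT without LPS it was 0 in edgeR and 1 in DESeq2 on these groups alone. With LPS it was 2 (SOD2 and NCF4) with RLE factors or library totals and 3 (CYBB added) with DESeq2 on all or on the compared libraries, edgeR on the compared libraries, or the replicate block. The LPS count in KD was 2 in edgeR on these groups alone. In no other comparison did the block move a count by over 1.5 times.

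With single libraries left out, counts ran from 2 to 4 for SCR and for KD against WT without LPS, 0 to 1 for KD against WT with LPS, 0 to 1 for the SCR minus WT interaction and 1 to 2 for KD minus WT. Signs turned for values near 0 that had not passed the threshold. SOD1 in SCR against WT with LPS, 0.01, became -0.006 with RLE factors or DESeq2, -0.011 with library totals, -0.014 in edgeR and -0.003 in DESeq2 on the groups alone. CAT in KD against WT with LPS, 0.000, became -0.024 with RLE factors, library totals or DESeq2, -0.010 without a filter, -0.022 in edgeR and -0.011 in DESeq2 on the groups alone. Leaving out libraries gave ranges across 0 for SOD1 in SCR against WT (-0.057 to 0.021 without and -0.043 to 0.044 with LPS) and KD against WT (-0.008 to 0.081 and -0.021 to 0.066), CYBB in SCR against WT without LPS (-0.095 to 0.269) and KD against SCR with LPS (-0.211 to 0.01), CAT (-0.054 to 0.033) and NCF1 (-0.157 to 0.071) in KD against WT with LPS, CYBA with LPS in KD (-0.292 to 0.041) and the SOD2 interaction of KD and SCR (-0.23 to 0.001). The cause of these changes was not tested.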
